A study of Mus musculus with 9 samples.

Results

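The genes described here are 36 markers of macrophages and of monocytes, the blood cells that macrophages can arise from, among 49671 genes counted by bulk RNA sequencing in a mouse model of pancreatic cancer. They were taken as a list of gene symbols, and all 36 matched a gene of the GENCODE M21 annotation on the genome build GRCm38. Cultures of the cancer cells, which hold no host cells, were used to divide the list. Of the 36, 26 stayed under 0.5 CPM (the count of a gene scaled to a fixed library total) in each of the 4 culture libraries and are called silent in culture, and 10 reached 0.5 CPM in a culture and are called expressed in culture. The nearest members on either side of that limit lay far from it, at 0.169 CPM for the highest culture value of a silent member (Csf1r and Fcer1g) and at 1.04 CPM for Mertk, the expressed member with the lowest highest value. For 15 of the 26 no count was found in any culture.

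The 4 groups were KO tumours (2 libraries), WT tumours (3 libraries), KO cultures (2 libraries) and WT cultures (2 libraries). KO stands for KPC49bKO, a pancreatic cancer line lacking CD49b, and WT for KPCWT, the line with CD49b. CD49b is the integrin alpha 2 chain, encoded by Itga2, which together with the beta 1 chain forms a receptor for collagen. Tumours were grown under the skin of the flank of syngeneic C57BL/6 mice and broken up with enzymes before RNA was extracted, so tumour RNA mixes cancer cells and host cells, while cultures were grown in medium with serum. The knockout is that of the injected line. The labels give no age of the mice, no driver alleles of the lines and no account of how CD49b was removed, and each genotype is 1 line, so that the effect of the knockout and other differences between the lines cannot be told apart. The libraries are labelled biological replicates, and p-values measure the spread between them. The KO tumours are named 1 and 3 after their data columns, although the labels number them 1 and 2.

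Total counts lay between 16032912 and 19562695 in the tumours and between 17738774 and 21247023 in the cultures. The targeted gene Itga2 was at 51.8 and 72.4 CPM in KO tumours, against 139, 167 and 158 CPM in WT tumours, and at 79.9 and 85.2 CPM in KO cultures, against 144 and 113 CPM in WT cultures, so no library went against its label although transcript remained. WT tumours 1 and 2 were much closer to each other than any other replicates, with a chi-square per gene of 6 against 23 or more in every other pair of replicates. Whether these 2 come from independent animals cannot be told from the counts. If they do not, the p-values of the tumour comparison are too small. Markers of other cells also differed between the tumours, and their part in the values of the macrophage genes was not tested. The 6 general leukocyte genes summed to 119 and 245 CPM in KO tumours, against 111, 118 and 158 CPM in WT tumours. The 10 T cell genes summed to 38.7 and 85.8 CPM, against 26.9, 27.2 and 7.29 CPM, and 7 neutrophil genes to 6.52 and 14.2 CPM, against 4.59, 9.91 and 62.5 CPM. The neutrophil sum leaves out, by a choice made after its values were seen, Ltf, the lactoferrin gene, which the cultured cancer cells express too, at 3.04 and 4.22 CPM in KO cultures, against 55.3 and 53.7 CPM in WT cultures. Fibroblast and pericyte genes (7) summed to 441 and 600 CPM in KO tumours, against 1536, 1059 and 2727 CPM in WT tumours, and no gene of any of these lists was at 0 in all tumours. Of their tested genes edgeR called 0 of 6 leukocyte genes (1 at an unadjusted p under 0.05, and 1 by DESeq2), 1 of 10 T cell genes (6 and 5), 1 of 5 neutrophil genes, Ltf (1 and 1), and 3 of 7 fibroblast and pericyte genes (5 and 5) between KO and WT tumours. Over all genes edgeR called 19.7%, with 35.8% at an unadjusted p under 0.05, and DESeq2 called 22.6%. Mitochondrial genes took 3.33% and 2.69% of the counts of KO tumours, against 1.9%, 2% and 1.93% in WT tumours.

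Macrophages are phagocytes that engulf debris, dying cells and antibody-coated particles. They live on signals through the receptor CSF1R, and much of their gene expression depends on the transcription factor PU.1, which binds DNA at a purine-rich GGAA core. In pancreatic cancer they are among the most abundant immune cells. Some of the usual markers are also made by epithelial and cancer cells, osteopontin (Spp1) and inducible nitric oxide synthase (Nos2) among them, which is why cultures of the cancer cells matter for reading these genes in whole tumours.

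To show the sequence in front of the marker genes, promoter windows were read from RefSeq (GRCm38.p6), each from 250 bases before to 50 bases after a gene's start. The table holds 35 windows of 27 of the 36 members, and Adgre1, Csf1r, Cd14, Tyrobp, C1qa, Msr1, Arg1, Nos2 and Maf have none in it. The 7 letters AGGAAGT, a form of the core that PU.1 and other ETS factors bind, were searched on both strands, where the other strand reads ACTTCCT. They were found in 31.4% of the members' windows, against 9.35% of all 32851 windows in the table. Of the members silent in culture 8 of 20 genes had a match (C1qb, C1qc, Chil3, Fcgr1, Fcgr4, Folr2, Ly6c2 and Lyz2), and of the members expressed in culture 2 of 7 (Mrc1 and Spp1). A match says only that the letters are there. The 250 bases before the start are shown for 3 silent members with many counts and for the 2 expressed members with a match, read 5′ to 3′ along the gene's own strand, with the match in capitals.
C1qb: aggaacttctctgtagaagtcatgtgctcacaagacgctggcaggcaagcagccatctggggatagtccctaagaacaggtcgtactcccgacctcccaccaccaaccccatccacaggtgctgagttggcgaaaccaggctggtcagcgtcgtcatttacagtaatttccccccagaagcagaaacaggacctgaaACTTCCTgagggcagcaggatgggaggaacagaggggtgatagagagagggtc
C1qc: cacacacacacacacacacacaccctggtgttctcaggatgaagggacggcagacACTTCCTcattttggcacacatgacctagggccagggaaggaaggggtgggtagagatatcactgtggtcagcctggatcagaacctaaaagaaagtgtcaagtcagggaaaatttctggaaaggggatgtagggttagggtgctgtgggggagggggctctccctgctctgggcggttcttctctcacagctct
Lyz2: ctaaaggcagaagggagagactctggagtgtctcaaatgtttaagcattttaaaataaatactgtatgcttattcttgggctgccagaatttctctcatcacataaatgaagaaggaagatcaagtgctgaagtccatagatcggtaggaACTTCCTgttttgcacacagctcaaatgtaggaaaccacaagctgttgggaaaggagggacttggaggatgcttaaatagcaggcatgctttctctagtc
Mrc1: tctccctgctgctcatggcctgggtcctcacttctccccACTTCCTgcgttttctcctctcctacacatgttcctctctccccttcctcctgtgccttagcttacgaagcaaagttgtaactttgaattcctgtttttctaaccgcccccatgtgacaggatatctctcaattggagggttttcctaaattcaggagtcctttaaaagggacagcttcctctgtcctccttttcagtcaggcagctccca
Spp1: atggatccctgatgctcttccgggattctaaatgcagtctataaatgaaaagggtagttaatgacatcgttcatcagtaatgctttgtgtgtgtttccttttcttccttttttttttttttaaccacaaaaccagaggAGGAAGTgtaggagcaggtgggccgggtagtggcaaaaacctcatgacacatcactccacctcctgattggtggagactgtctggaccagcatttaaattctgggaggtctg
The stretch of C1qb is chr4:136886201-136886450 (minus strand), with the match 53 bases before the start, and that of C1qc is chr4:136892915-136893164 (minus strand), with the match 195 bases before it. The stretch of Lyz2 is chr10:117282273-117282522 (minus strand), with the match at 100 bases. Those of the expressed members are chr2:14229164-14229413 (plus strand) for Mrc1, with the match at 211 bases, and chr5:104434861-104435110 (plus strand) for Spp1, with the match at 112 bases. In Spp1 the match lies on the strand of the gene and in the other 4 genes on the opposite strand. The GENCODE M21 models of C1qc, Lyz2 and Mrc1 begin inside these stretches.

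KO tumours were first compared with WT tumours. For most of the macrophage genes silent in culture no difference was called, and libraries of the same genotype differed widely. Arg1, arginase 1, an enzyme that breaks down arginine and is made by a subset of tumour macrophages, fell to 13.0 and 20.1 CPM in KO tumours, against 30.0, 32.5 and 27.6 CPM in WT tumours. Gpnmb and Trem2, markers of lipid-laden phagocytes, and Ms4a7 were higher in every KO tumour than in every WT tumour but did not pass the test. Over all genes tested 25.7% were higher in this way. In a whole tumour, fewer macrophages and less RNA of a gene per macrophage cannot be told apart.

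Of the 26 silent members 20 had enough counts to be tested, and the other 6 are described with their role below. With edgeR's quasi-likelihood F test and adjustment over all genes by Benjamini and Hochberg, at an adjusted p under 0.05, 1 of the 20 was lower in KO tumours, 0 were higher and 19 were not called. Over all genes tested in tumours 19.7% were called, 8.78% as higher and 10.9% as lower. DESeq2 called 2 of the 20, Arg1 as lower and Gpnmb as higher. At an unadjusted p under 0.05 edgeR had 5 of the 20 (C1qb, Trem2, Gpnmb, Arg1 and Ms4a7), beside the 35.8% of all genes. The groups did not overlap for 4 of the 20, with KO above WT for 3 and below it for 1, while over all genes tested they did not overlap for 53.3% (25.7% with KO above and 27.5% below). The log2 fold changes of KO over WT had a median of 0.31 (range -0.99 to 1.43), beside -0.01 over all genes tested. That median depended on single libraries. It was -0.21 without KO tumour 3, with 7 of 20 values above 0 in place of 15, and it was 0.74 without KO tumour 1 and 0.84 without WT tumour 3.

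**Figure D1:**
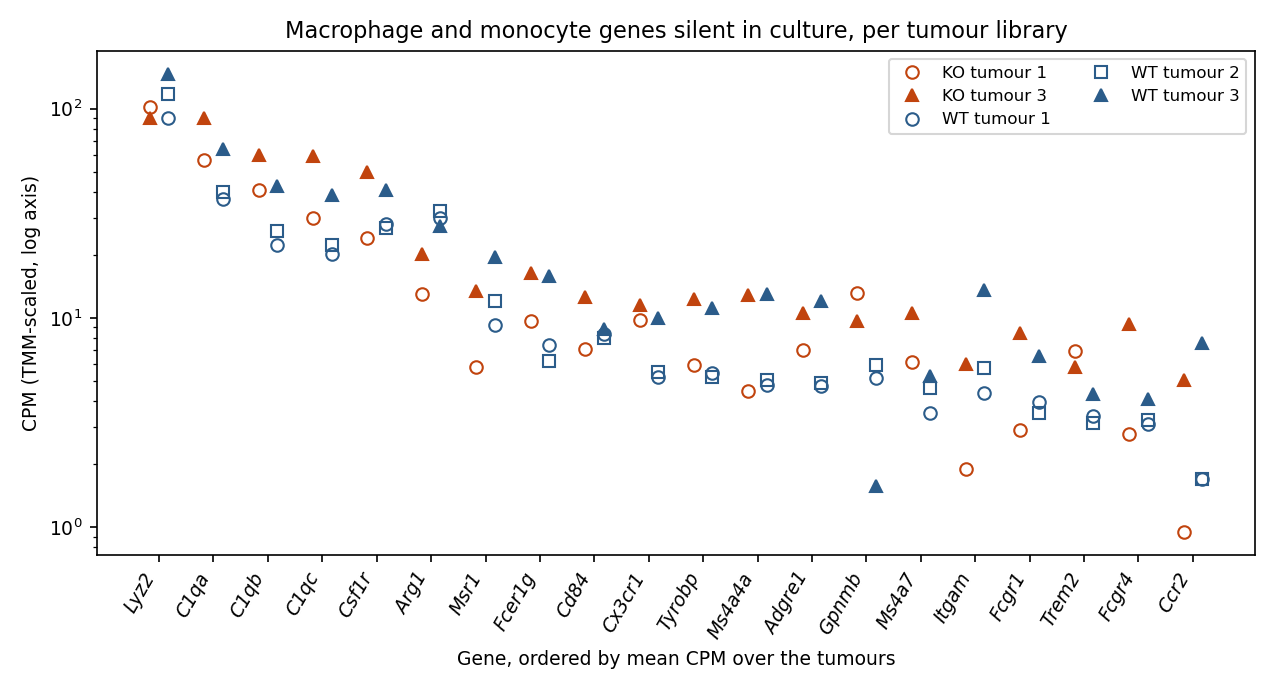
Levels of the 20 tested macrophage and monocyte genes that are silent in culture. Each point is 1 tumour library, with TMM-scaled CPM on a log axis, genes ordered by their mean, KO tumours in orange at the left of each pair and WT tumours in blue at the right. KO tumour 3 lies above KO tumour 1 for 17 genes and WT tumour 3 above both other WT tumours for 18, and for Arg1 both KO tumours lie below all WT tumours.

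The libraries themselves ordered most of these genes in the same way. KO tumour 3 was above KO tumour 1 for 17 of the 20, with a median ratio of 1.74 (range 0.736 to 5.33). WT tumour 3 was above both other WT tumours for 18 of the 20, with a median ratio to their mean of 1.77 (range 0.284 to 4.47), whereas WT tumour 2 stood at 0.84 to 1.32 times WT tumour 1. The highest library was KO tumour 3 for 11 genes and WT tumour 3 for 6, and the lowest was KO tumour 1 for 9 and WT tumour 1 or 2 for 10. Gpnmb ran against this order, with its lowest value in WT tumour 3 and a higher value in KO tumour 1 than in KO tumour 3.

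Among the receptors that define macrophages, Csf1r, the receptor for the growth factors CSF1 and IL-34, was at 24.2 and 49.9 CPM in KO tumours, against 28.1, 27.0 and 41.0 CPM in WT tumours. The groups overlapped (log2 fold change 0.21, 95% interval -0.57 to 0.99, edgeR adjusted p = 0.685). Exons of Csf1r overlap by up to 873 bases those of Hmgxb3 on the opposite strand, and the counting of strand is not given. In the cultures Csf1r stayed at or under 0.169 CPM and Hmgxb3 had 26.2 to 36.9 CPM. Whether reads in the overlap were shared or left out of the counts was not tested. Adgre1, which encodes the mouse macrophage antigen F4/80, was at 7.0 and 10.6 CPM, against 4.70, 4.89 and 12 CPM (log2 fold change 0.29, interval -0.84 to 1.41, edgeR adjusted p = 0.702). WT tumour 3 was its highest library, so no ordering by genotype was seen. Cx3cr1, the receptor for fractalkine on monocytes and resident macrophages, was at 9.78 and 11.5 CPM in KO tumours, against 5.21, 5.54 and 9.94 CPM in WT tumours, where WT tumour 3 alone reached the KO range (log2 fold change 0.62, interval -0.19 to 1.43, edgeR adjusted p = 0.238). Itgam, the CD11b chain of an integrin shared by macrophages, monocytes and neutrophils, had its lower mean in the KO tumours, with 1.90 and 6.04 CPM in KO tumours, against 4.36, 5.77 and 13.6 CPM in WT tumours (log2 fold change -0.99, interval -2.56 to 0.57, edgeR adjusted p = 0.325). Its highest library, WT tumour 3, was also the highest for the neutrophil genes given above, and their part in the value of Itgam was not tested.

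Fc receptors bind the constant part of antibodies, and most signal through the adaptor Fcer1g. Fcgr1, the high-affinity receptor for IgG, was at 2.92 and 8.49 CPM in KO tumours, against 3.97, 3.5 and 6.55 CPM in WT tumours, with KO tumour 1 the lowest library and KO tumour 3 the highest. Fcgr4, another activating IgG receptor of mouse myeloid cells, was at 2.79 and 9.40 CPM, against 3.12, 3.26 and 4.09 CPM, and split the KO tumours in the same way. Its log2 fold change was 0.81 (interval -0.39 to 2.00, edgeR adjusted p = 0.297), but -0.32 without KO tumour 3 and 1.44 without KO tumour 1, where the adjusted p was 0.0363. The adaptors gave 9.71 and 16.3 CPM against 7.42, 6.23 and 15.9 CPM for Fcer1g, and 5.98 and 12.3 CPM against 5.44, 5.19 and 11.1 CPM for Tyrobp, the adaptor of TREM2 and related receptors. For all 4 of these silent genes the groups overlapped, and edgeR adjusted p ran from 0.297 (Fcgr4) to 0.722 (Fcgr1).

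The 3 chains of C1q, the protein that starts the classical complement cascade and is made chiefly by macrophages, were the most abundant silent members after Lyz2 when counted per gene length. C1qa was at 57.1 and 90.4 CPM in KO tumours, against 36.8, 40.0 and 64.1 CPM in WT tumours. C1qb was at 41.0 and 59.8 CPM, against 22.3, 25.9 and 42.9 CPM, and C1qc at 30.0 and 59.5 CPM, against 20.3, 22.3 and 38.5 CPM. In each case WT tumour 3 lay above KO tumour 1 and below KO tumour 3, so the groups overlapped. The log2 fold changes were 0.65 for C1qa (SE 0.29, edgeR adjusted p = 0.161), 0.73 for C1qb (SE 0.30, edgeR adjusted p = 0.137) and 0.73 for C1qc (SE 0.37, edgeR adjusted p = 0.209). Without WT tumour 3 C1qb passed the test (log2 fold change 1.05, edgeR adjusted p = 0.0414), while C1qa and C1qc did not, and without KO tumour 3 the 3 values were lower, down to 0.16 for C1qc. The 3 genes kept nearly the same proportions in every tumour. C1qa made up 44.6% and 43.1% of the C1q counts in KO tumours, against 46.4%, 45.3% and 44% in WT tumours, and C1qc 23.4% and 28.4%, against 25.6%, 25.3% and 26.5%. Vsig4, a complement receptor of resident macrophages, was counted 0 times in the KO tumours and 1 time in the WT tumours, where a count of 3 over a group would be 0.0929 CPM and 0.0558 CPM.

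Scavenger receptors take up modified lipoproteins, haemoglobin complexes and microbes, and several mark macrophages that reside in tissues. Msr1, the class A scavenger receptor, was at 5.84 and 13.4 CPM in KO tumours, against 9.24, 12 and 19.5 CPM in WT tumours (log2 fold change -0.50, interval -1.57 to 0.57, edgeR adjusted p = 0.467). The other silent members of this group were too rare to be tested. Cd163, the haemoglobin scavenger receptor, had 1 count in the KO tumours and 31 in the WT tumours, of which 28 came from WT tumour 3 (1.38 CPM). Marco had 1 count in each genotype, and Folr2, the folate receptor beta of resident macrophages, 12 counts in KO tumours and 43 in WT tumours, with 31 of them in WT tumour 3. Exons of Folr2 overlap those of the antisense gene Gm10602. Among these rare receptors, WT tumour 3 thus held most of the counts of Cd163 and Folr2.

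Of the silent genes for lysosomes, lipid and phagocytosis, Lyz2, lysozyme of macrophages and neutrophils, was at 102 and 90.4 CPM in KO tumours, against 90.3, 118 and 147 CPM in WT tumours (log2 fold change -0.30, interval -0.80 to 0.20, edgeR adjusted p = 0.354). Its near copy Lyz1 was at 0.488 CPM or less in every tumour, and the 2 may share reads. Per kilobase of exon Lyz2 was the most abundant silent gene in both genotypes, at 73.1 CPM per kb in KO tumours and 89.9 CPM per kb in WT tumours, next to 70.9 and 45.2 CPM per kb for C1qa. Trem2, a lipid-sensing receptor of lipid-laden macrophages, was at 6.93 and 5.80 CPM in KO tumours, against 3.40, 3.15 and 4.33 CPM in WT tumours. Gpnmb, a glycoprotein of phagocytes loaded with lysosomes and lipid, was at 13.1 and 9.65 CPM, against 5.16, 5.94 and 1.58 CPM. For both genes every KO tumour lay above every WT tumour. Neither passed, at a log2 fold change of 0.81 for Trem2 (SE 0.29, interval 0.13 to 1.49, edgeR adjusted p = 0.0928) and 1.43 for Gpnmb (SE 0.52, interval 0.19 to 2.68, edgeR adjusted p = 0.0998). Gpnmb was called under 4 alternatives, among them DESeq2, no count filter and 1 fit of all 9 libraries, its adjusted p over 12 alternatives running from 0.033 to 0.279, and Trem2 was called in 0 of 12, from 0.0617 to 0.343.

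Arg1 (ENSMUSG00000019987, chr10:24915221-24927484, minus strand of GRCm38, the whole gene) was the silent member that passed the test. It averaged 16.6 ± 5.07 CPM in KO tumours and 30.0 ± 2.42 CPM in WT tumours (SD, n = 2 and 3), with both KO libraries below all WT libraries, a log2 fold change of -0.86 (SE 0.22, interval -1.38 to -0.33, edgeR adjusted p = 0.0383). The call was lost without KO tumour 1 (edgeR adjusted p = 0.0964), without WT tumour 1 (0.121), 2 (0.137) or 3 (0.067), and with WT tumours 1 and 2 summed to 1 sample (0.124), while over 12 alternatives the log2 fold change stayed between -1.20 and -0.56. Chil3, the chitinase-like protein of alternatively activated macrophages, was not tested, with 3 counts in KO tumours and 16 in WT tumours, 14 of them in WT tumour 3. It may share reads with its near copy Chil4.

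Ms4a7 and Ms4a4a encode membrane proteins with several membrane-spanning segments that mark macrophages. Ms4a7 was at 6.18 and 10.6 CPM in KO tumours, against 3.51, 4.6 and 5.27 CPM in WT tumours, so that the groups did not overlap (log2 fold change 0.91, SE 0.33, interval 0.11 to 1.71, edgeR adjusted p = 0.103). Ms4a4a, from the same gene cluster on chromosome 19, was at 4.48 and 12.9 CPM, against 4.76, 5.07 and 13.0 CPM (log2 fold change 0.19, interval -1.24 to 1.61, edgeR adjusted p = 0.851). KO tumour 3 and WT tumour 3 were nearly equal for Ms4a4a and far above the other libraries. Cd84, a receptor of the SLAM family that binds its own kind on other leukocytes, was at 7.13 and 12.6 CPM in KO tumours, against 8.33, 7.98 and 8.81 CPM in WT tumours, with KO tumours as the lowest and the highest library (log2 fold change 0.24, edgeR adjusted p = 0.592).

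Silent monocyte markers were at 7.58 CPM or less in every tumour. Ccr2, the receptor for the chemokine CCL2 that brings monocytes out of the bone marrow, was at 0.951 and 5.07 CPM in KO tumours, against 1.70, 1.69 and 7.58 CPM in WT tumours (log2 fold change -0.28, interval -2.43 to 1.86, edgeR adjusted p = 0.85). The spread within each genotype was thus larger than the difference between them. Ly6c2, a surface antigen of inflammatory monocytes, had 28 counts in KO tumours, all in KO tumour 3, and 10 in WT tumours, and may share reads with its near copy Ly6c1.

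Because the libraries differed in their overall level of macrophage RNA, each silent gene was also set against a core of 12 silent genes (Adgre1, Csf1r, Cx3cr1, Itgam, Fcgr1, Fcgr4, Fcer1g, Tyrobp, C1qa, C1qb, C1qc and Vsig4), a choice made after the data had been seen and described here with no test. The core summed to 192 and 334 CPM in KO tumours, against 142, 150 and 260 CPM in WT tumours. The C1q genes made up 66.6% and 62.7% of its counts in KO tumours, against 56%, 59% and 56% in WT tumours, so the measure leans on them. Per 100 core counts Arg1 had 6.74 and 6.03 counts in KO tumours, against 21.2, 21.7 and 10.6 in WT tumours. Msr1 had 3.04 and 4 counts, against 6.52, 8.02 and 7.51, and its groups, which overlapped in CPM, did not overlap on this scale. Lyz2 had 53.1 and 27 counts per 100 core counts in KO tumours, against 63.7, 78.7 and 56.5 in WT tumours, likewise without overlap.

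Relative to the other core genes, Itgam had 0.999 and 1.84 counts per 100 in KO tumours, against 3.18, 4.01 and 5.54 in WT tumours, and Csf1r had 14.4 and 17.6, against 24.7, 22 and 18.7. In all, 4 of the 20 genes were above WT in both KO tumours on this scale (C1qa, C1qb, C1qc and Ms4a7), 5 were below (Csf1r, Itgam, Msr1, Lyz2 and Arg1) and 11 overlapped. Over all genes tested in the tumours KO lay above WT on this scale for 2.7% and below it for 26.8%. The core genes make up its denominator, so the counts among the 20 are given as a description. Ms4a7 had 3.21 and 3.16 counts per 100 core counts, against 2.48, 3.08 and 2.03. Trem2 and Gpnmb, which did not overlap in CPM, did overlap here, with 3.6 and 1.74 counts for Trem2 in KO tumours, against 2.4, 2.1 and 1.67 in WT tumours, and 6.81 and 2.89 counts for Gpnmb, against 3.64, 3.97 and 0.607. KO tumour 1 had the highest value of both.

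**Figure D2:**
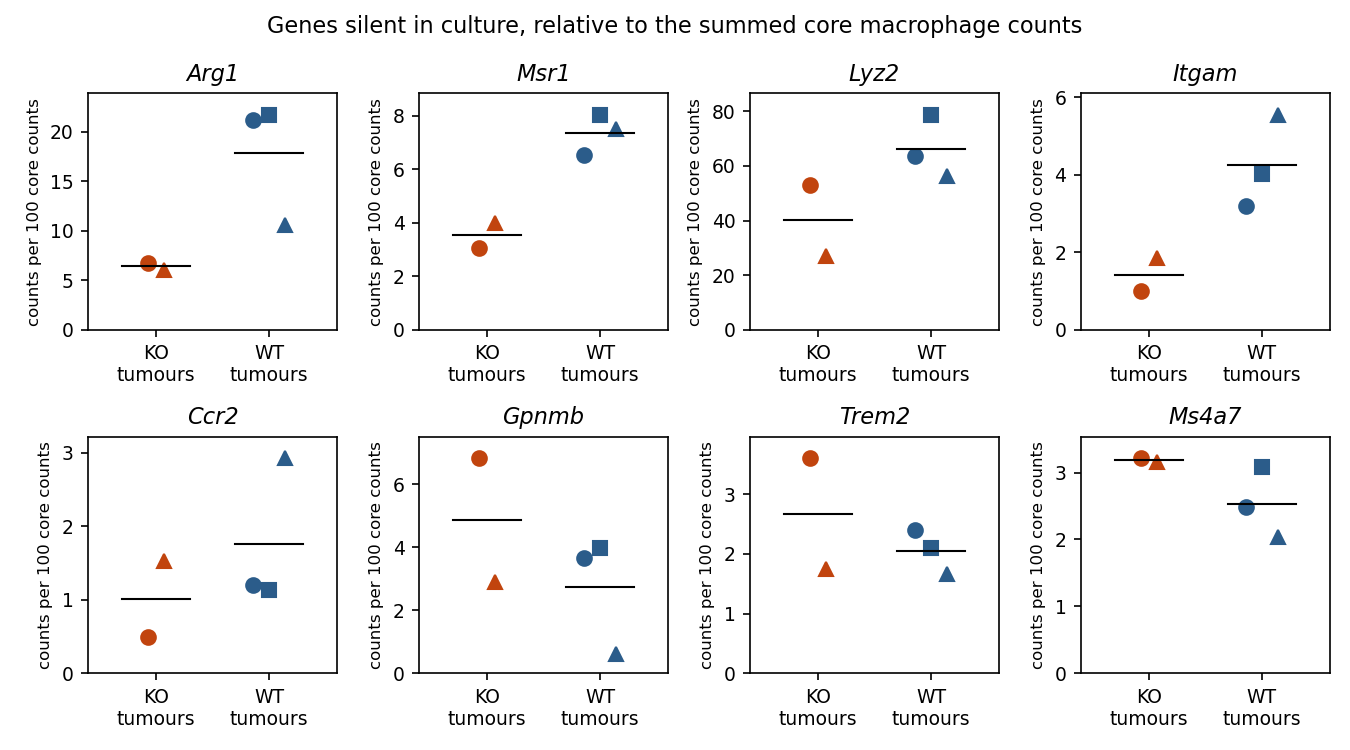
Counts of 8 silent genes per 100 summed counts of the 12 core macrophage genes, 1 point per tumour library and a line at the group mean, KO tumours in orange at the left and WT tumours in blue at the right (circle for tumour 1, square for 2, triangle for 3). For Itgam the other core genes are the denominator. Arg1, Msr1, Lyz2 and Itgam lie lower in both KO tumours than in all WT tumours, Ms4a7 lies higher, and Ccr2, Gpnmb and Trem2 overlap.

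The 10 members that the cancer cells express gave most of the calls. In tumours 2 were higher in KO (Plac8 and Apoe), 3 were lower (Spp1, Nos2 and Maf) and 5 were not called, beside the 19.7% of all genes given above, and the median log2 fold change was 0.07. DESeq2 called the same 5 and Cd14 as lower. The comparison of KO with WT cultures shows the same genes without host cells. There 5 were lower in KO (Cd68, Apoe, Spp1, Nos2 and Plac8), 0 were higher and 5 were not called (3 of them above 0 and 2 below), with a median over the 10 of -0.64, beside -0.00 over all genes tested. Over all genes tested in culture 25.5% were called, 9.27% as higher and 16.2% as lower. DESeq2 called 4 of the 10, all lower (Apoe, Spp1, Nos2 and Plac8). The KO cultures lay above the WT cultures for 1 of the 10 and below them for 6, beside 29.6% and 31.8% of all genes tested, and 61.4% of all genes did not overlap. The difference between the effect in tumours and the effect in culture was tested in 1 fit of all 9 libraries, in which it was called for 3 of the 10 (Apoe and Plac8 as higher in tumours and Cd14 as lower), beside 5.69% of all genes tested, 4.15% as higher and 1.54% as lower. Whether the tumour values come from cancer cells or host cells cannot be told apart in these bulk libraries.

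**Figure D3:**
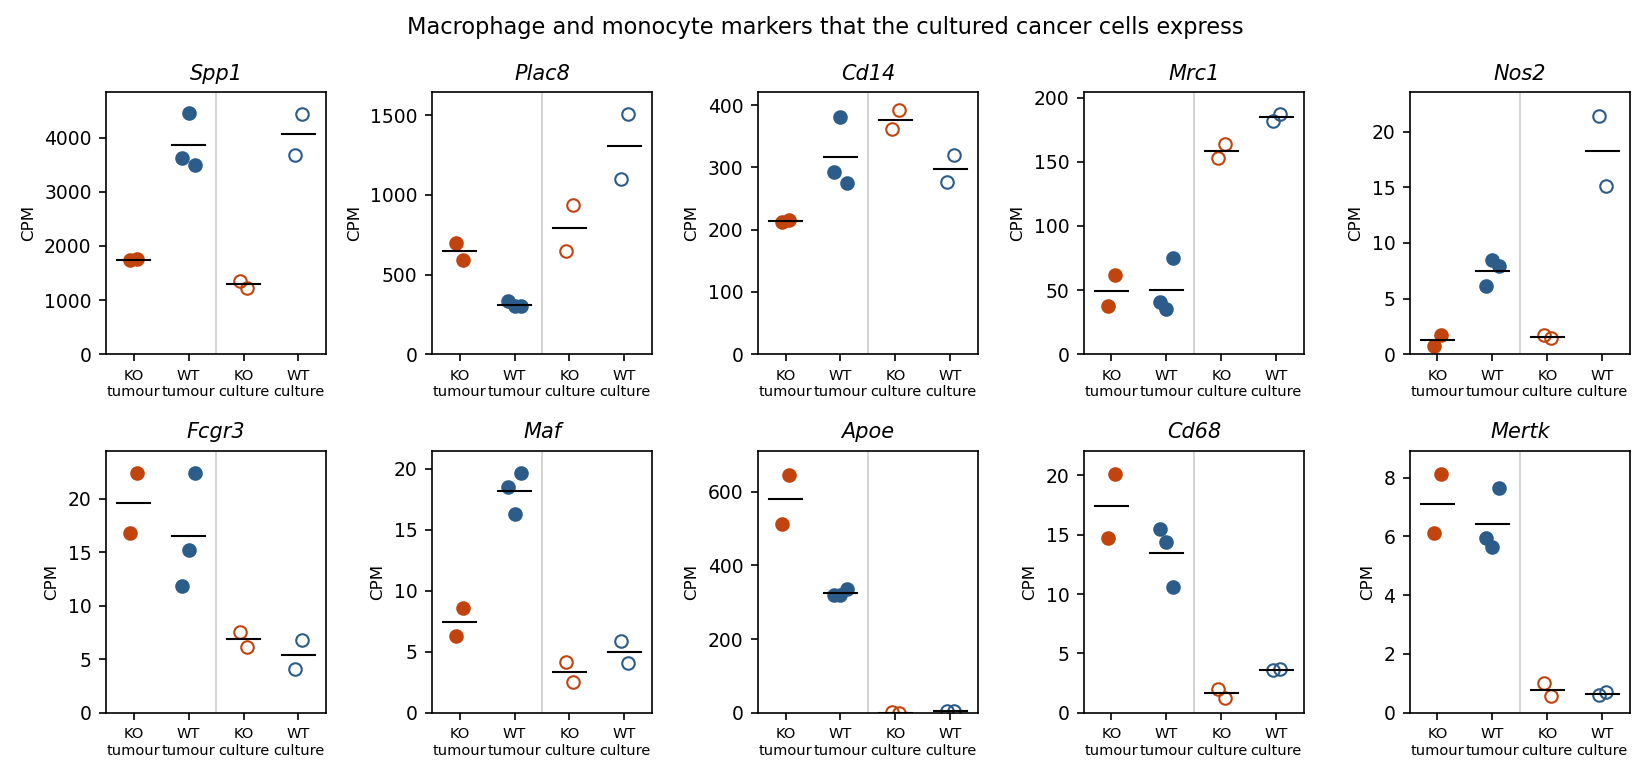
Levels of the 10 macrophage and monocyte markers that the cultured cancer cells express, in TMM-scaled CPM on linear axes from 0, with 1 point per library, a line at the group mean, filled points for tumours, open points for cultures, KO in orange and WT in blue. Apoe and Plac8 lie higher in KO than in WT tumours and lower in KO than in WT cultures, whereas Spp1 and Nos2 lie lower in KO in both settings.

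Apoe (ENSMUSG00000002985, chr7:19696109-19699188, minus strand), apolipoprotein E, carries lipid and is secreted in large amounts by macrophages. It rose to 513 and 646 CPM in KO tumours, against 321, 321 and 335 CPM in WT tumours (log2 fold change 0.83, SE 0.13, edgeR adjusted p = 0.00959). In culture it fell to 0.967 and 0.456 CPM in KO cells, against 4.6 and 3.57 CPM in WT cells (log2 fold change -2.47, SE 0.40, edgeR adjusted p = 0.00059). The cancer cells in culture thus held little of the gene, and its level was 814 times as high in KO tumours as in KO cultures and 79.6 times as high in WT tumours as in WT cultures, on CPM scaled within each setting. The KO cultures had only 21 and 8 counts of Apoe, so the ratio of 814 is rough. The effect in tumours minus the effect in culture was 3.28 (SE 0.35, edgeR adjusted p = 0.00103) and was called under 16 of 16 alternatives. The tumour call on its own was lost without WT tumour 1 (edgeR adjusted p = 0.0554), without WT tumour 2 (0.0584) and with the 2 summed (0.0535). Per kilobase of exon Apoe was at 271 CPM per kb in KO tumours and 152 CPM per kb in WT tumours, well above any silent member.

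Plac8 (ENSMUSG00000029322, chr5:100553725-100572245, minus strand) encodes a small cysteine-rich protein found in monocytes and neutrophils and also in pancreatic cancer cells. It rose to 697 and 593 CPM in KO tumours, against 333, 302 and 300 CPM in WT tumours (log2 fold change 1.05, SE 0.13, edgeR adjusted p = 0.00411), a call that held under 12 of 12 alternatives. In culture it was lower, at 647 and 939 CPM in KO cells, against 1100 and 1506 CPM in WT cells (log2 fold change -0.72, SE 0.23, edgeR adjusted p = 0.0349). That culture call was lost without KO culture 1 (edgeR adjusted p = 0.358) or without WT culture 2 (0.207). The difference between the effects was 1.74 (SE 0.28, edgeR adjusted p = 0.00643), called under 16 of 16 alternatives. KO tumours held 0.814 times the level of KO cultures, and WT tumours 0.239 times that of WT cultures.

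Spp1 (ENSMUSG00000029304, chr5:104435118-104441050, plus strand), which encodes osteopontin, a secreted protein that binds integrins and CD44, was the most abundant member in the tumours, at 1062 CPM per kilobase of exon in KO and 2342 CPM per kilobase in WT. It fell to 1736 and 1763 CPM in KO tumours, against 3632, 4452 and 3496 CPM in WT tumours (log2 fold change -1.14, SE 0.16, edgeR adjusted p = 0.00642). It also fell in culture, to 1361 and 1220 CPM in KO cells, against 3684 and 4445 CPM in WT cells (log2 fold change -1.66, SE 0.21, edgeR adjusted p = 0.000101). Both calls held under all alternatives run, 12 of 12 in tumours and 10 of 10 in culture. For the difference between the 2 effects the value was 0.49 (interval -0.04 to 1.02, edgeR adjusted p = 0.282). Its levels in tumours and cultures of the same line were close, at 1.36 times in KO and 0.95 times in WT.

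Nos2 (ENSMUSG00000020826, chr11:78920787-78960254, plus strand), the inducible nitric oxide synthase, competes with arginase for arginine and is a marker of macrophages activated by interferon gamma. It fell to 0.747 and 1.77 CPM in KO tumours, against 6.12, 8.51 and 7.93 CPM in WT tumours (log2 fold change -2.56, SE 0.44, edgeR adjusted p = 0.0118, and 0.0514 without WT tumour 2). In culture it fell to 1.70 and 1.48 CPM in KO cells, against 21.4 and 15.1 CPM in WT cells (log2 fold change -3.50, SE 0.27, edgeR adjusted p = 2.05e-06). Every KO library was below every WT library in both settings. The difference between the effects was 0.93 (interval -0.22 to 2.07, edgeR adjusted p = 0.35). In WT the level in tumours was 0.413 times that in cultures.

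Maf (ENSMUSG00000055435, chr8:115682942-115707794, minus strand) encodes a transcription factor of resident and IL-10-producing macrophages. It fell to 6.25 and 8.61 CPM in KO tumours, against 18.5, 16.3 and 19.6 CPM in WT tumours (log2 fold change -1.29, SE 0.23, edgeR adjusted p = 0.013), and the call was lost without WT tumour 1 (0.0587) and with WT tumours 1 and 2 summed (0.0508). In culture Maf was at 4.14 and 2.51 CPM in KO cells, against 5.90 and 4.07 CPM in WT cells, with overlapping groups (log2 fold change -0.57, interval -1.25 to 0.11, edgeR adjusted p = 0.215). For the difference between the settings the value was -0.73 (interval -1.66 to 0.19, edgeR adjusted p = 0.359).

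Cd14, the co-receptor for bacterial lipopolysaccharide on monocytes and macrophages, was abundant in cancer cells as well. It was at 212 and 215 CPM in KO tumours, against 292, 381 and 275 CPM in WT tumours, without overlap but short of the threshold (log2 fold change -0.57, SE 0.17, edgeR adjusted p = 0.0565). In culture it was at 361 and 392 CPM in KO cells, against 276 and 320 CPM in WT cells, above rather than below (log2 fold change 0.34, SE 0.17, edgeR adjusted p = 0.16). The difference between the effects was -0.93 (SE 0.24, edgeR adjusted p = 0.0466), called under 7 of 16 alternatives, with adjusted p from 0.00405 to 0.141. Cd68, a glycoprotein of lysosomes used to stain macrophages, was at 14.7 and 20.1 CPM in KO tumours, against 15.5, 14.4 and 10.6 CPM in WT tumours (log2 fold change 0.37, edgeR adjusted p = 0.323). In culture Cd68 fell to 2.03 and 1.25 CPM in KO cells, against 3.57 and 3.68 CPM in WT cells (log2 fold change -1.12, SE 0.34, edgeR adjusted p = 0.0268). The culture call was lost with DESeq2 (adjusted p = 0.103) and without KO culture 2 (0.121), WT culture 1 (0.0723) or WT culture 2 (0.106). Its difference between the settings was 1.48 (SE 0.42, edgeR adjusted p = 0.0662).

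The other 3 expressed members were not called by edgeR in this comparison in either setting. Mrc1, the mannose receptor CD206, was at 37.7 and 61.5 CPM in KO tumours, against 40.8, 34.9 and 75.0 CPM in WT tumours (log2 fold change -0.02, interval -0.88 to 0.85, edgeR adjusted p = 0.977). In culture Mrc1 was at 153 and 164 CPM in KO cells, against 182 and 187 CPM in WT cells, and it was the only member of the 10 that was lower in every tumour than in every culture. A marker often read as one of alternatively activated macrophages was thus higher in cancer cells grown alone than in whole tumours. Fcgr3, a low-affinity IgG receptor, was at 16.8 and 22.4 CPM in KO tumours, against 11.8, 15.2 and 22.4 CPM in WT tumours (log2 fold change 0.25, edgeR adjusted p = 0.585), and at 4.06 to 7.55 CPM in the cultures. Mertk, a receptor for the uptake of dying cells, was at 6.11 and 8.12 CPM in KO tumours, against 5.95, 5.65 and 7.63 CPM in WT tumours (log2 fold change 0.15, edgeR adjusted p = 0.733). With Cd68, Apoe and Maf, both were higher in every tumour than in every culture, which makes 5 of the 10.

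**Figure D4:**
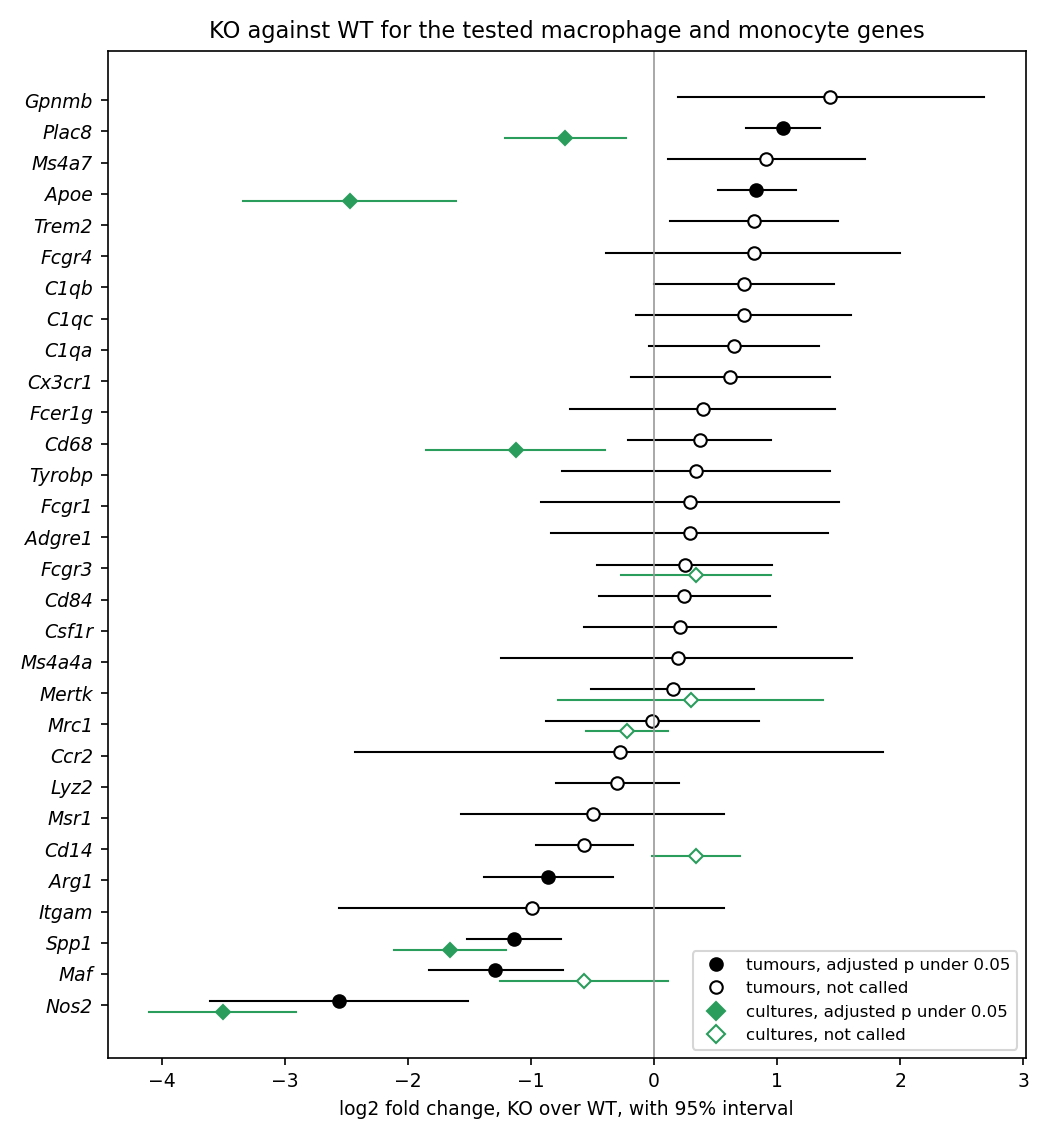
Log2 fold changes of KO over WT with 95% intervals for the 30 tested members in tumours (black circles) and for the 10 members expressed in culture also in cultures (green diamonds), filled where the edgeR adjusted p was under 0.05. In tumours 2 members lie above 0 and 4 below it as calls, and for Apoe and Plac8 the tumour and culture points lie on opposite sides of 0.

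Genes that act on macrophages or downstream of these markers were read from further lists of known pathway members, by the same test. Of 13 growth factors, receptors and transcription factors of the myeloid lineage, 1 rose, 3 fell and 9 were not called in tumours, with a median log2 fold change of -0.73. At an unadjusted p under 0.05 edgeR had 8 of the 13, beside 35.8% of all genes. Every KO tumour lay above every WT tumour for 1 and below for 7, beside 25.7% and 27.5% of all genes. Over all genes tested in tumours edgeR called 19.7% and DESeq2 22.6%. Il34, the second ligand of CSF1R, fell to 6.32 and 5.19 CPM in KO tumours, against 11, 13.5 and 12.4 CPM in WT tumours (log2 fold change -1.10, edgeR adjusted p = 0.0221), and in culture by 0.89 (edgeR adjusted p = 0.00736). Csf1, the first ligand, was at 8.29 and 19.5 CPM in KO tumours, against 22, 28.5 and 29.1 CPM in WT tumours (log2 fold change -0.93, edgeR adjusted p = 0.115), and Csf2, which encodes GM-CSF, at 0.0679 and 0.427 CPM, against 0.85, 1.22 and 1.87 CPM (log2 fold change -2.35, edgeR adjusted p = 0.0696). In culture Csf2 fell to 11.1 and 17.0 CPM in KO cells, against 48.6 and 68.2 CPM in WT cells (edgeR adjusted p = 4.36e-05), and Csf1 was not called (log2 fold change 0.09, edgeR adjusted p = 0.753). DESeq2 called 1 as higher (Nr1h3) and 5 as lower, adding Csf2 and Runx1. The other calls in tumours were Nr1h3, the lipid-sensing receptor LXR alpha, at 1.20 (edgeR adjusted p = 0.0135), and the factors Cebpa at -1.08 (0.0397) and Cebpb at -1.39 (0.0108). The cancer cells express these genes, and in culture the log2 fold change was 0.83 for Nr1h3 (edgeR adjusted p = 0.0345), -2.29 for Cebpa (0.000144) and 0.44 for Cebpb (0.0947), with Cebpb at 61.4 and 46.1 CPM in KO cultures, against 40.3 and 38.9 CPM in WT cultures. Spi1, the gene of PU.1, was at 6.86 and 14.5 CPM in KO tumours, against 4.36, 6.47 and 10.8 CPM in WT tumours (log2 fold change 0.56, edgeR adjusted p = 0.426), with KO tumour 3 and WT tumour 3 the highest libraries, as for most silent members.

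Monocyte chemoattractants had 0 of 7 genes higher and 2 lower in KO tumours, with 5 not called and a median of -1.07. At an unadjusted p under 0.05 edgeR had 5 of the 7, where over all genes 19.7% were called and 35.8% had such a p. DESeq2 called 3 as lower and 0 as higher. Called by edgeR were Ccl6 (log2 fold change -1.31, edgeR adjusted p = 0.0399) and Ccl9 (-1.91, edgeR adjusted p = 0.0282). In culture Ccl9 also fell, by 1.71 (edgeR adjusted p = 0.0326), and Ccl6 was not tested there. Ccl2, the ligand of CCR2, was at 1.02 and 4.64 CPM in KO tumours, against 8.90, 7.69 and 11.1 CPM in WT tumours, without overlap and not called (log2 fold change -1.69, edgeR adjusted p = 0.0882), and it fell in culture by 1.08 (edgeR adjusted p = 0.00222). The log2 fold changes above 0 belonged to 3 of the 7, none of them called. Cx3cl1, which encodes the CX3CR1 ligand fractalkine, was at 166 and 177 CPM in KO tumours, against 135, 128 and 81.8 CPM in WT tumours, without overlap (0.58, edgeR adjusted p = 0.108). Ccl8 had 1.74 (edgeR adjusted p = 0.12) and Ccl12 had 0.72 (edgeR adjusted p = 0.338). In culture Ccl8 was low, at 0 and 0.057 CPM in KO cells, against 0.541 and 0.824 CPM in WT cells (log2 fold change -4.42, edgeR adjusted p = 0.00456). Of 12 genes that signal below Tyrobp and Fcer1g, 1 rose (Ptpn6, the phosphatase SHP-1, at 0.90, edgeR adjusted p = 0.0353), 0 fell (1 by DESeq2) and 11 were not called, among them the kinase gene Syk at 6.66 and 12.8 CPM in KO tumours, against 8.16, 11.1 and 23.2 CPM in WT tumours. The cancer cells express Ptpn6 too, at 3.59 and 3.48 CPM in KO cultures, against 3.68 and 3.68 CPM in WT cultures (log2 fold change -0.06, edgeR adjusted p = 0.902). From a list of 8 surface receptors of macrophages, most of them inhibitory, 7 were tested. Of these 7, 0 were called at the adjusted threshold and 0 at an unadjusted p under 0.05, with a median of -0.22, and DESeq2 called 0 as well. Of 5 subunits of the phagocyte oxidase 0 were called by edgeR, with 1 at an unadjusted p under 0.05, and DESeq2 called 1 (Cyba, higher). Cyba is also made by the cancer cells, at 230 and 319 CPM in KO cultures, against 269 and 383 CPM in WT cultures.

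Lipid handling and lysosomal genes were read beside Trem2, Gpnmb and Apoe. Of 11 lipid handling genes 3 rose in KO tumours, 0 fell and 8 were not called, with a median of 0.55. DESeq2 called 5 as higher and 0 as lower, and by edgeR 7 had an unadjusted p under 0.05. Over all genes tested in tumours edgeR called 19.7%, 8.78% as higher and 10.9% as lower. DESeq2 called 22.6% of all genes, and 35.8% had an unadjusted p under 0.05 by edgeR. The 3 lipid handling genes that edgeR called were Plin2, which coats lipid droplets (log2 fold change 1.39, edgeR adjusted p = 0.00571), Lipa, the lysosomal acid lipase (0.82, edgeR adjusted p = 0.0144), and Cd9, a tetraspanin (0.64, edgeR adjusted p = 0.0113). All 3 are made by the cancer cells too, with 325 CPM or more of Plin2 in KO tumours and 906 CPM or more in every culture. Between KO and WT cultures Plin2 was also higher (0.96, edgeR adjusted p = 0.00208), Lipa was not called (-0.08, 0.753) and Cd9 was lower (-0.56, 0.0462). Of the 9 lipid handling genes tested in culture 2 were higher in KO, 4 were lower and 3 were not called, beside 25.5% of all genes called there. Of 8 lysosomal proteases 1 rose in KO tumours, 1 fell and 6 were not called, beside the shares of all genes given above. DESeq2 called 2 as higher and 1 as lower, and by edgeR 4 had an unadjusted p under 0.05. Ctss, a cathepsin of antigen-presenting cells, rose to 73.2 and 125 CPM in KO tumours, against 46.4, 53.1 and 62.9 CPM in WT tumours (log2 fold change 0.87, edgeR adjusted p = 0.0481). Ctsc, the activator of granule proteases, fell (-1.01, edgeR adjusted p = 0.0345). Ctss was at 0.0921 CPM or less in the cultures and so belongs with the silent genes, whereas Ctsc was at 54.3 CPM or more in every culture. In culture Ctsc was also lower in KO cells (-0.67, edgeR adjusted p = 0.00769).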

How the data were processed

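RNA from 5 tumours and 4 cultures was sequenced after poly(A) selection, and duplicates were removed by molecular identifiers, per the labels' protocols. The submitters' processing notes name, without roles, DESeq2, Subread 1.5.2, featureCounts, STAR 2.5.2b and fastp 0.23.1, on GRCm38. Strand setting and annotation release: not given in the sources used here. Raw counts per gene, deposited as 1 table for tumours and 1 for cultures, were the input, and the authors' normalized and rlog tables were left out. A gene's CPM also moves with what else its library holds.

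The filter was filterByExpr (minimum count 10, minimum total 15), the scaling TMM and the test the quasi-likelihood F test (edgeR 4.0.16, R 4.3.3), for KO over WT in tumours (16257 genes), in cultures (13573 genes) and for the difference of these effects in a joint fit of the 9 libraries (16793 genes). Each p was adjusted by the Benjamini-Hochberg method across the genes of its comparison, with a threshold of 0.05. Fold changes carry a prior count of 0.125, and 95% intervals use the degrees of freedom of the test. CPM were scaled by TMM within tumours or within cultures, except for the limit of 0.5 CPM, which uses library totals. Limits of 3 counts cover counting error alone. Exons of Csf1r, Folr2, Spp1, Itgam, Cx3cr1 and Maf overlap those of another gene, and reads there may be shared. The scripts were tested on simulated counts. All 36 members and 125 of 126 genes of 17 other lists were matched by symbol.

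All members may be named. So may, of each other list, the 4 tested genes lowest in p, and wherever measured Ptprc, Spi1, Csf1, Csf2, Ccl2, Syk, Cd8a and Itga2. Hmgxb3, Lyz1, Ly6c1, Chil4 and Gm10602 were named later for their likeness to or overlap with members, and Cyba, Runx1, Ccl8 and Ccl12 after their values were seen. The members and lists were chosen with earlier results of these data known. The alternatives were RLE or library-total scaling, no filter, DESeq2 1.42.0, 1 fit of all libraries, a replicate block, and each library left out. The sum of WT tumours 1 and 2 and a restriction of the difference to genes passing in both settings were chosen after seeing the data. The KO tumour column numbered 3 was assigned to its group only.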

Additional observations from a re-analysis of the deposited data

Results flagged for a closer look

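For 3 members that the cancer cells express, the effect of the knockout in tumours differed from that in culture by a test of the difference itself, in 1 fit of all 9 libraries with edgeR's quasi-likelihood F test. For Apoe the difference was 3.28 on the log2 scale (edgeR adjusted p = 0.00103), with every KO tumour above every WT tumour and every KO culture below every WT culture. For Plac8 it was 1.74 (edgeR adjusted p = 0.00643), with the same arrangement of the libraries. For Cd14 it was -0.93 (edgeR adjusted p = 0.0466), with every KO tumour below every WT tumour and every KO culture above every WT culture. The calls for Apoe and Plac8 held under 16 of 16 alternatives and that for Cd14 under 7 of 16. The tumours hold host cells and the cultures do not. Cell makeup, setting and any batch that follows the setting cannot be told apart in these differences.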

How the results depend on the processing

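The number of genes called in tumours (3206) was 1288 with WT tumours 1 and 2 summed to 1 sample and 1171 to 4143 with 1 library left out, the lowest without WT tumour 2 (1171) and WT tumour 1 (1258), which were close to each other. The silent members called (1) were 2 in 1 fit of all 9 libraries, with DESeq2 and without a filter, 0 with WT tumours 1 and 2 summed, and 0 to 1 with 1 library left out, where the member called was Fcgr4 without KO tumour 1 and C1qb without WT tumour 3 in place of Arg1. The expressed members called in tumours (5) were 3 with WT tumours 1 and 2 summed and 3 to 6 with 1 library left out. In culture 3461 genes became 2130 to 2985 with 1 library left out. For the difference, 955 became 1565 with DESeq2, 1875 without a filter, 565 with WT tumours 1 and 2 summed and 288 to 1651 with 1 library left out. With the replicate number as a block, 1428 genes were called in tumours, 7587 in culture and 546 for the difference. The tumour columns share the numbers 1 and 3, but no label of a KO tumour carries the number 3, and which label that column belongs to is not settled. Deviations of same-numbered libraries correlated at -0.00976 in tumours and 0.578 in culture, over 2 pairs each, too few to show that the numbers pair the libraries. Under the block the silent member called was Gpnmb (1.95, edgeR adjusted p = 0.0473) in place of Arg1 (-0.83, 0.123), the culture calls added Cd14 (edgeR adjusted p = 1.19e-05), Mrc1 (0.0047) and Maf (0.0248), and Cd14 was no longer called for the difference (0.0567).

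The 26 silent members were the same number under every limit and scaling tried. Of the single-member values, 318 of the tumour, 89 of the culture and 138 of the difference results kept direction and side of the threshold. For a member not called, this means only that it was again not called in the same direction. Of the tumour results 12 lost a call, 11 gained one and 19 turned direction. The same numbers were 6, 4 and 1 in culture and 9, 3 and 10 for the difference. Directions turned for members not called with all libraries. The largest of these values was 0.81 for Fcgr4, which was called without KO tumour 1 (1.44, edgeR adjusted p = 0.0363). Ms4a4a was -0.04 with WT tumours 1 and 2 summed and -0.05 under the block, Fcgr1 was -0.02 and the difference for Mrc1 -0.00 under the block, and Mrc1 was 0.00 in 1 fit of all 9 libraries. With 1 library left out, tumour log2 fold changes ran from -0.03 to 0.86 for Adgre1, -0.40 to 0.65 for Csf1r, -0.67 to 0.87 for Fcgr1, -0.32 to 1.44 for Fcgr4, -0.01 to 0.92 for Fcer1g, -0.27 to 0.78 for Tyrobp, -0.76 to 0.81 for Ms4a4a, -0.22 to 0.61 for Cd84, -1.93 to 0.83 for Ccr2, -0.06 to 0.35 for Mertk and -0.41 to 0.38 for Mrc1. Mertk in culture ran from -0.19 to 0.63. The difference ran from -0.49 to 0.33 for Mertk, -0.53 to 0.24 for Fcgr3 and -0.23 to 0.61 for Mrc1. In the tumours 9 of these 11 turned without KO tumour 3. The cause was not tested. Depth limits the 6 untested silent members, of which none had more than 43 counts in a genotype.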

Other observations

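Some markers of other immune cells were also counted in the cultures, where there are no host cells. Ptprc, which encodes the leukocyte antigen CD45, was at 7.05 and 8.33 CPM in KO cultures, against 2.11 and 2.58 CPM in WT cultures, higher by 1.71 on the log2 scale (edgeR adjusted p = 0.00053). In tumours it was at 39.5 and 71.1 CPM in KO, against 29.1, 29.2 and 33.7 CPM in WT, without overlap and not called (log2 fold change 0.85, edgeR adjusted p = 0.0535). Of the 6 general leukocyte genes 4 were tested in culture, with 2 higher in KO, 1 lower and 1 not called, beside 25.5% of all genes called. The lower one was Coro1a, at 0.0461 and 0.057 CPM in KO cultures, against 3.3 and 2.86 CPM in WT cultures (log2 fold change -5.74, edgeR adjusted p = 1.9e-05). Ltf, lactoferrin of neutrophil granules, was at 3.04 and 4.22 CPM in KO cultures, against 55.3 and 53.7 CPM in WT cultures, and at 0.136 and 0.916 CPM in KO tumours, against 13.3, 23.7 and 37.9 CPM in WT tumours (edgeR adjusted p = 0.00623 in tumours). Mcpt8, a basophil protease, was at 1.80 and 1.20 CPM in KO cultures, against 27.9 and 39.2 CPM in WT cultures, and at 1.09 and 4.95 CPM in KO tumours, against 17.5, 17.5 and 22.2 CPM in WT tumours (edgeR adjusted p = 0.0226 in tumours).

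Cd8b1, a chain of the CD8 receptor of T cells, was at 3.19 and 9.34 CPM in KO tumours, against 1.70, 0.932 and 0.246 CPM in WT tumours (log2 fold change 2.72, edgeR adjusted p = 0.0475). Cd8a, the other chain, was at 13.9 and 26.4 CPM, against 10.0, 10.7 and 1.92 CPM (log2 fold change 1.42, edgeR adjusted p = 0.174). Xcr1, a chemokine receptor of cross-presenting dendritic cells, was at 1.02 and 2.32 CPM in KO tumours, against 0.227, 0.524 and 0.148 CPM in WT tumours (log2 fold change 2.48, edgeR adjusted p = 0.04). Of the 6 dendritic cell genes 4 were tested and edgeR called 1, beside 19.7% of all genes, while DESeq2 called 2. Not called by edgeR were Clec9a (log2 fold change 2.15, edgeR adjusted p = 0.0748), Flt3 (0.08, 0.949) and Ccr7 (-0.72, 0.445). The 6 genes summed to 2.99 and 12.3 CPM in KO tumours, against 3.8, 4.02 and 5.56 CPM in WT tumours, so the groups overlapped. WT tumour 3, which was high for most macrophage genes, was the lowest library for Cd8a, Cd8b1 and Xcr1.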
